A study of Mus musculus with 12 samples.

Results

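Cells of the mouse squamous carcinoma line SCC7 were compared after 24 h in medium conditioned by macrophages that had been kept in interleukin-4 (M2 CM) or in control medium (M0 CM). The comparison takes 6 of the 12 libraries of the series, chosen by their titles, with 3 libraries in each group, and every gene that passed a filter on low counts, which 14509 of 55487 genes did. For M2 CM, macrophages derived from mouse bone marrow were held for 24 h with 20 ng/ml interleukin-4. For M0 CM they were held for the same time in DMEM with no cytokine. The SCC7 cells carry the genotype WT in the labels of both groups, and their RNA, not that of the macrophages, was sequenced. The other 6 libraries hold SCC7 cells in medium of macrophages treated with 20 ng/ml interferon-gamma (M1 CM) or with 75% medium conditioned by SCC7 cells (TAM CM). All groups therefore received a macrophage medium, and no group in unconditioned medium was analysed here. The sources used here do not say whether interleukin-4 was removed before the macrophages conditioned the medium, so the cytokine itself and macrophage products cannot be told apart. SCC7 is 1 cell line, and the labels do not tell whether a group's 3 libraries are separate cultures, so p-values reflect only the spread among these libraries, which may be technical.

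Interleukin-4 drives macrophages into the state called M2 or alternatively activated. Outside the blood lineage it binds a receptor of the Il4ra and Il13ra1 chains, whose kinases Jak1, Jak2 and Tyk2 activate the transcription factor STAT6. Genes switched on by STAT6 include feedback inhibitors of the SOCS family, and the decoy receptor Il13ra2 binds interleukin-13 without passing on the signal. Macrophage medium also holds cytokines, growth factors and matrix-modifying enzymes that act on tumour cells through NF-kB, STAT3 and receptor tyrosine kinases.

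Library totals ran from 18996937 to 22596630 counts over the series, and log2 CPM (counts per 1000000 counts of the library) of libraries of the same group correlated at r = 0.993 to 0.994 in M0 CM and M2 CM. Many markers of squamous epithelium were absent or nearly so: Krt6a, Krt1, Ivl, Dsg3, Perp and Epcam were at 0 in both groups, and Krt5, Krt14, Krt17 and Cdh1 had at most 5 counts over the 3 libraries of a group. Trp63, a factor of squamous basal cells, had 115 counts in M0 CM and 67 in M2 CM (edgeR adjusted p 0.0666), Krt10 had 54 and 55, and Krt16 rose from 10 to 54 (ratio 5.56, exact 95% interval 2.80 to 12.3). Krt8 and Krt18, the keratins of simple epithelium, and the cornified-envelope gene Sprr1a were present. The 16 markers of this list summed to 368 to 402 CPM in M0 CM and 697 to 775 CPM in M2 CM, most of it Krt8 and Krt18. Of the 6 that passed the filter 4 rose and 0 fell. Of 17 macrophage markers, 4 were at 0 in both groups, and their summed level was 23.4 to 24.6 CPM in M0 CM and 22.9 to 25.2 CPM in M2 CM, most of it Cd14. Of the 5 that passed the filter Mrc1, a mannose receptor of M2 macrophages, rose from 44 to 119 counts (0.681 ± 0.0386 to 1.90 ± 0.424 CPM, edgeR adjusted p 8.60e-05) and Aif1 fell from 33 to 11 (edgeR adjusted p 0.0174), a call lost without M2 CM 2, M0 CM 1 or M0 CM 2 (0.0528 to 0.0748). Lyz2 had 53 and 26 counts (edgeR adjusted p 0.0762, or 0.00525 without M2 CM 3). The part of macrophage RNA in the results was not tested. The 12 fibroblast markers summed to 5019 to 5367 CPM in M0 CM and 3375 to 3501 CPM in M2 CM, while the defining fibroblast genes Lum, Thy1 and Fap were at 0 in both. Fn1 and Col1a2 held most of both sums, with Fn1 alone at 2576 CPM in M0 CM and 1881 CPM in M2 CM. Of the 9 fibroblast markers that passed the filter 6 fell and 2 rose, Postn from 9.95 to 32.0 CPM among the latter. The third M2 CM library bears a melanoma cell type in its label. Its 9 melanocyte markers summed to 6.80 CPM, within the range of 5.57 to 7.34 CPM of its group, and Dct, Sox10 and Slc45a2 were at 0 in M0 CM and M2 CM. Without it, 2711 genes rose and 2413 fell in M2 CM, and no list count of 5 or more members given here moved by over 1.5 times.

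Promoter sequence from RefSeq (GRCm38.p6) is shown for 5 of the largest rises, to set some strong responders beside the binding motifs of the factors named above. Il24 and Lipg, at ranks 1 and 5 of the rises, are not among them. Each run is the 250 bases before the annotated start, read 5′ to 3′ on the gene's own strand. Capitals mark matches on either strand to TTC and GAA with any 4 bases between (the spacing bound by STAT6), TTC and GAA with any 3 between (the spacing of other STAT factors), GGGA and TTTCC with any 1 between (an NF-kB type) or TGANTCA (AP-1). Cxcl1, a chemokine gene that rose, was added after its NF-kB type match had been seen.
Il13ra2 (chrX:147429193-147429442, minus strand): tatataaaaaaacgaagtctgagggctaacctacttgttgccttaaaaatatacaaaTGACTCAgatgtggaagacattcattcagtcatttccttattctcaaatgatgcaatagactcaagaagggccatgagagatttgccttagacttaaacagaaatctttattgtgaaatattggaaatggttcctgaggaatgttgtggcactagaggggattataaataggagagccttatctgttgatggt
Srpx2 (chrX:133908175-133908424, plus strand): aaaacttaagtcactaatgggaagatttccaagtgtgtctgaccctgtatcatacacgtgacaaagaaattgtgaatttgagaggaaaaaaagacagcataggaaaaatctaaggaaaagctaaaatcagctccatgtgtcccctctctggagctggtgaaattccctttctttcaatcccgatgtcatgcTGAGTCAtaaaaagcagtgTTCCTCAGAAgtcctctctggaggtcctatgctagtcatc
Tnfrsf8 (chr4:145315165-145315414, minus strand): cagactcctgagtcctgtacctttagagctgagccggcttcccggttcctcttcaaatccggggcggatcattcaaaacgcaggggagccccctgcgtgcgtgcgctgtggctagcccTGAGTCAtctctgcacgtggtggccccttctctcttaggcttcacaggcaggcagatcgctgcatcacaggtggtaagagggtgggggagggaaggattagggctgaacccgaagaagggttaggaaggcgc
Ces1g (chr8:93337210-93337459, minus strand): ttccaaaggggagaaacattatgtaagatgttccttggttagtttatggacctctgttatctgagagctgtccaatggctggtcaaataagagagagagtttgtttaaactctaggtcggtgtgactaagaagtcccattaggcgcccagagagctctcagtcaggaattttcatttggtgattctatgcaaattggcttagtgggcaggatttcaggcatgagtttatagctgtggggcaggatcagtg
Edn1 (chr13:42301226-42301475, plus strand): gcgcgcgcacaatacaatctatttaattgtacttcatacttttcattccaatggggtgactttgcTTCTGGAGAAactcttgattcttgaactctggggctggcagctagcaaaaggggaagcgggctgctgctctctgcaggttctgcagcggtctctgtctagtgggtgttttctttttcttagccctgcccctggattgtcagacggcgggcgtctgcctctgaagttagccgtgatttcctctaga
Cxcl1 (chr5:90890995-90891244, plus strand): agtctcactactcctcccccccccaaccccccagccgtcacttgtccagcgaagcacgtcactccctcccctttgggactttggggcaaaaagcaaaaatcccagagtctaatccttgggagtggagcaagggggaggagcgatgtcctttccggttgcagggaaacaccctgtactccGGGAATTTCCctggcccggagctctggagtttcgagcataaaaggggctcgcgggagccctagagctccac

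Srpx2 and Edn1 carry a STAT6-spaced match, and Il13ra2, Srpx2 and Tnfrsf8 an AP-1 match. Windows of 250 bases before to 50 after the start were found for 14 of the 20 largest rises (18 windows, since some genes have several starts) and for 15 of the 20 largest falls (29 windows). The STAT6-spaced motif was in 3 of the 18 windows of the rises (16.7%) and 2 of the 29 of the falls (6.90%), against 6.95% of all 32851 windows in the table and 5.48% of the 12739 windows of genes tested. AP-1 letters were in 5 of 18 (27.8%) and 6 of 29 (20.7%), against 7.81% of all windows and 5.57% of those of genes tested. A gene with several starts can count more than once. The AP-1 windows of the falls were all of Mme, P2ry14 and Prss23, and the STAT6-spaced windows of the falls both of Dhrs3. The spacing of other STAT factors was in 0 of 18 and 2 of 29 (6.90%), against 8.30% and 6.81%, and the NF-kB type was in none of either set, against 0.411% and 0.471%. These are counts of letters in a short window and were not tested.

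By edgeR's quasi-likelihood test (Benjamini-Hochberg adjusted p under 0.05, over the whole table), 5723 genes differed, which is 39.4% of those tested, with 3042 up in M2 CM (21.0%) and 2681 down (18.5%). Most of these differences were small. The change was at least 1.5-fold for 404 of the genes that rose (2.78% of those tested) and 663 of those that fell (4.57%), and at least 2-fold for 220 (1.52%) and 251 (1.73%), or 471 in all (3.25%). The libraries of the groups did not overlap for 49.5% of all genes tested, 25.6% with M2 CM higher and 23.9% with M2 CM lower, which is the background for each statement below that groups were apart. Large changes leaned upwards, with 75 genes at least 4-fold higher and 23 at least 4-fold lower. The median log2 fold change of all genes tested was -0.0035 and the median absolute log2 fold change 0.18. Dividing by library sizes alone, with no scaling factors, called 2201 genes higher and 3653 lower and put the median at -0.06, so the number of small changes in each direction depended on the scaling.

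**Figure D1:**
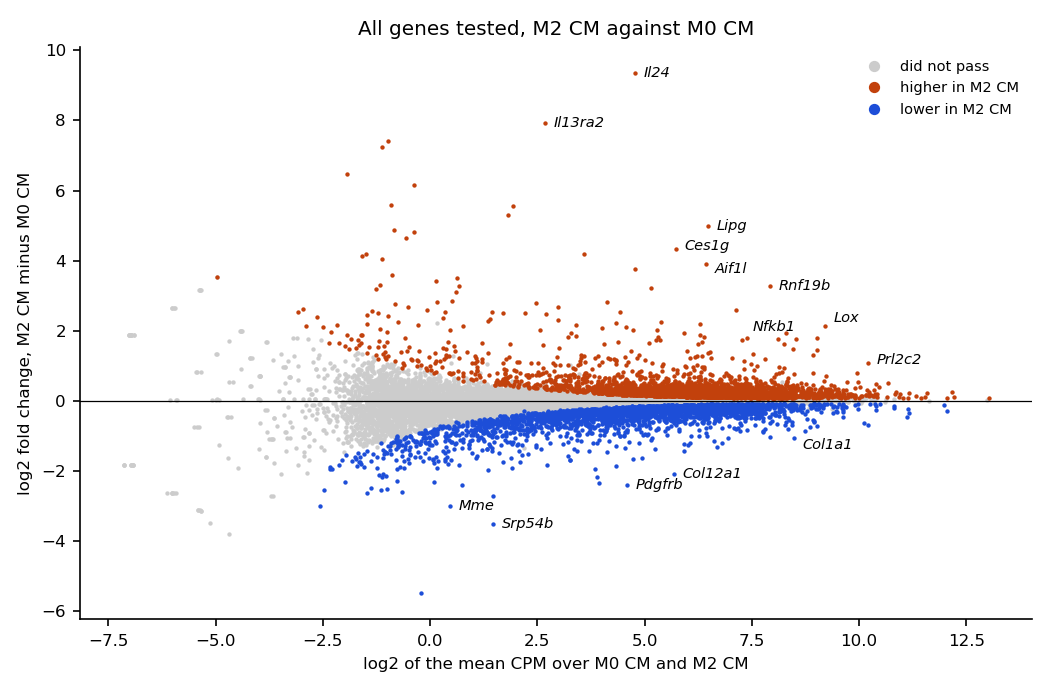
Each point is a gene tested: the horizontal axis gives the log2 of its mean CPM over the 2 groups and the vertical axis its log2 fold change, M2 CM minus M0 CM, coloured by whether it passed the test (genes with no count in either group are not drawn). Il24 and Il13ra2 stand highest at 9.36 and 7.93, and the called genes lie mostly close to 0.

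The 20 largest rises and falls were taken from genes whose groups did not overlap, so lack of overlap follows from that rule. The largest rises included secreted signals and receptors of cytokines and TNF-type ligands. Il24, an interleukin-10 family member that signals through the interleukin-20 receptors (chromosome 1, 130882074 to 130887454), stood at 0.128, 0.0995 and 0 CPM in the M0 CM libraries and 52.0, 56.5 and 55.9 CPM in the M2 CM libraries. All 3 M2 CM libraries were far above the M0 CM libraries, which together held 5 counts against 3423. The ratio of the summed counts was 705 (exact binomial 95% interval 302 to 2173, counting error only), with a log2 fold change of 9.36 (SE 0.21) and an edgeR adjusted p of 1.48e-34. Il13ra2 (chromosome X, 147383476 to 147429192) stood at 0.0425, 0.0497 and 0.0482 CPM in the M0 CM libraries and 13.0, 12.6 and 12.9 CPM in the M2 CM libraries. Again there was no overlap, on 3 counts against 802, a ratio of 275 with an exact 95% interval of 93.9 to 1338 (edgeR adjusted p 7.60e-27). Tnfrsf8, which encodes the TNF-receptor family member CD30 (chromosome 4, 145267137 to 145315164), stood at 0.128, 0.249 and 0.145 CPM in the M0 CM libraries and 7.11, 7.17 and 6.51 CPM in the M2 CM libraries, on 11 counts against 433. Tnfrsf11b, which encodes the RANKL decoy osteoprotegerin, rose 9.36-fold from 6.81 ± 0.235 to 63.9 ± 4.13 CPM (SD, n = 3, as for every mean here). Edn1, the precursor of the vasoconstrictor endothelin-1 (chromosome 13, 42301476 to 42307990), stood at 1.11, 1.14 and 1.54 CPM in the M0 CM libraries and 21.2, 24.5 and 22.9 CPM in the M2 CM libraries. It was 18.1-fold higher in M2 CM with no overlap between groups (log2 fold change 4.18 (SE 0.16), edgeR adjusted p 1.48e-27).

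Several enzymes and an enzyme inhibitor were also among the 20 largest rises. Lipg, an endothelial lipase that cleaves phospholipids of high-density lipoprotein, stood at 5.95, 4.72 and 5.49 CPM in the M0 CM libraries and 165, 177 and 174 CPM in the M2 CM libraries. This was a 31.7-fold rise (log2 fold change 4.99 (SE 0.07), edgeR adjusted p 2.92e-46), with each M2 CM library far above each M0 CM library. Ces1g, a carboxylesterase (chromosome 8, 93302369 to 93337308), stood at 4.76, 4.82 and 5.64 CPM in the M0 CM libraries and 95.7, 109 and 99.1 CPM in the M2 CM libraries, a 20.0-fold rise without overlap (edgeR adjusted p 1.63e-26). Ces1g belongs to a family of near-identical copies, so its counts may be split with them. Ido2, an indoleamine 2,3-dioxygenase that acts on tryptophan, rose from 4.32 ± 0.312 to 30.8 ± 0.589 CPM. Adamts1, a secreted metalloproteinase that cuts proteoglycans such as versican (chromosome 16, 85793827 to 85803113), stood at 36.9, 41.7 and 42.4 CPM in the M0 CM libraries and 237, 244 and 245 CPM in the M2 CM libraries (log2 fold change 2.59 (SE 0.04), edgeR adjusted p 1.44e-40), again with no overlap. Serpinb1a, an inhibitor of neutrophil serine proteases from a multi-copy family, rose from 2.13 ± 0.292 to 13.6 ± 0.409 CPM, and Rnf19b, a ubiquitin ligase, from 45.8 ± 2.83 to 442 ± 4.75 CPM.

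Secreted, cytoskeletal and nuclear proteins were further members of that set. Srpx2, a secreted sushi-repeat protein (chromosome X, 133908426 to 133932446), stood at 0.213, 0.0497 and 0.193 CPM in the M0 CM libraries and 7.89, 7.72 and 7.03 CPM in the M2 CM libraries, on 10 counts against 472, with no overlap. Aif1l, an actin-binding protein (chromosome 2, 31950139 to 31973442), stood at 11.5, 10.3 and 10.2 CPM in the M0 CM libraries and 156, 172 and 158 CPM in the M2 CM libraries, a 15.1-fold rise (log2 fold change 3.92 (SE 0.06), edgeR adjusted p 9.83e-44). Msx3, a homeobox factor of the developing neural tube, rose from 3.75 ± 0.261 to 51.5 ± 2.76 CPM, and Lamb3, a chain of the epithelial laminin-332, from 1.40 ± 0.00533 to 9.65 ± 1.08 CPM. Low in both groups were Plppr4, a lipid phosphatase-related protein of neurons (0.240 ± 0.168 to 2.87 ± 0.182 CPM), Grm7, a metabotropic glutamate receptor (0.318 ± 0.140 to 2.72 ± 0.257), Patj, a scaffold of the Crumbs polarity complex (0.181 ± 0.104 to 2.03 ± 0.510), and Otogl (0.372 ± 0.0208 to 2.19 ± 0.513). Fam110c rose from 6.34 ± 0.247 to 36.9 ± 3.87 CPM.

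The 20 largest falls were smaller in fold and included a growth factor receptor, a nucleotide-sugar receptor, matrix proteins and ion transporters. Pdgfrb, the beta receptor for platelet-derived growth factor, stood at 39.6, 40.0 and 42.4 CPM in the M0 CM libraries and 8.13, 7.22 and 7.79 CPM in the M2 CM libraries. The M2 CM libraries were all below the M0 CM libraries, 5.26-fold lower (log2 fold change -2.40 (SE 0.08), edgeR adjusted p 3.81e-29). P2ry14, the receptor for UDP-glucose (chromosome 3, 59113855 to 59153618), stood at 25.7, 26.3 and 25.0 CPM in the M0 CM libraries and 4.92, 4.82 and 5.42 CPM in the M2 CM libraries. It was 5.07-fold lower without overlap (log2 fold change -2.34 (SE 0.11), edgeR adjusted p 1.02e-23), and it lies opposite the gene Med12l, so reads of the pair could be mixed if strand was not used. Col12a1, a collagen that sits on the surface of fibrils (chromosome 9, 79598991 to 79718831), stood at 79.5, 92.7 and 77.9 CPM in the M0 CM libraries and 19.7, 19.3 and 19.5 CPM in the M2 CM libraries. That is 4.27-fold lower, with no overlap (log2 fold change -2.09 (SE 0.06), edgeR adjusted p 6.91e-31). Among membrane proteins, Slc24a3, a sodium-calcium exchanger, fell from 10.4 ± 1.16 to 2.87 ± 0.301 CPM, Kcnj2, an inward-rectifying potassium channel, from 4.06 ± 0.224 to 1.02 ± 0.0838 CPM, and Cd248, known as endosialin, from 5.03 ± 0.718 to 1.48 ± 0.602 CPM. Mme, which encodes the peptidase neprilysin, fell from 2.46 ± 0.776 to 0.303 ± 0.114 CPM, the serine protease gene Prss23 from 23 ± 1.10 to 6.01 ± 1.26 CPM and the retinaldehyde reductase gene Dhrs3 from 2.82 ± 0.431 to 0.529 ± 0.0565 CPM. Itgbl1, an integrin-beta-like secreted protein, fell from 31.7 ± 0.910 to 8.68 ± 0.326 CPM, and the basement-membrane netrin Ntn4 from 2.49 ± 0.989 to 0.697 ± 0.391 CPM.

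Srp54b, a copy of a signal recognition particle gene with near-identical neighbours, had the lowest log2 fold change (-3.50, SE 1.19) and the least stable call. Its M0 CM libraries stood at 7.87, 1.54 and 5.83 CPM, wide apart, against 0.464, 0.502 and 0.380 CPM in M2 CM. Its edgeR adjusted p was 0.0468, and rose to between 0.0976 and 0.132 in the 5 of 6 leave-one-out fits that lost the call. The remaining falls were Megf6, Zfp469, Klhdc8a, Ranbp3l, Olfml3, Pid1, Tmem119 and the kinase-inactive ephrin receptor Ephb6, at 6.62, 4.53, 3.75, 3.51, 3.26, 3.24, 3.21 and 3.36-fold lower in that order.

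**Figure D2:**
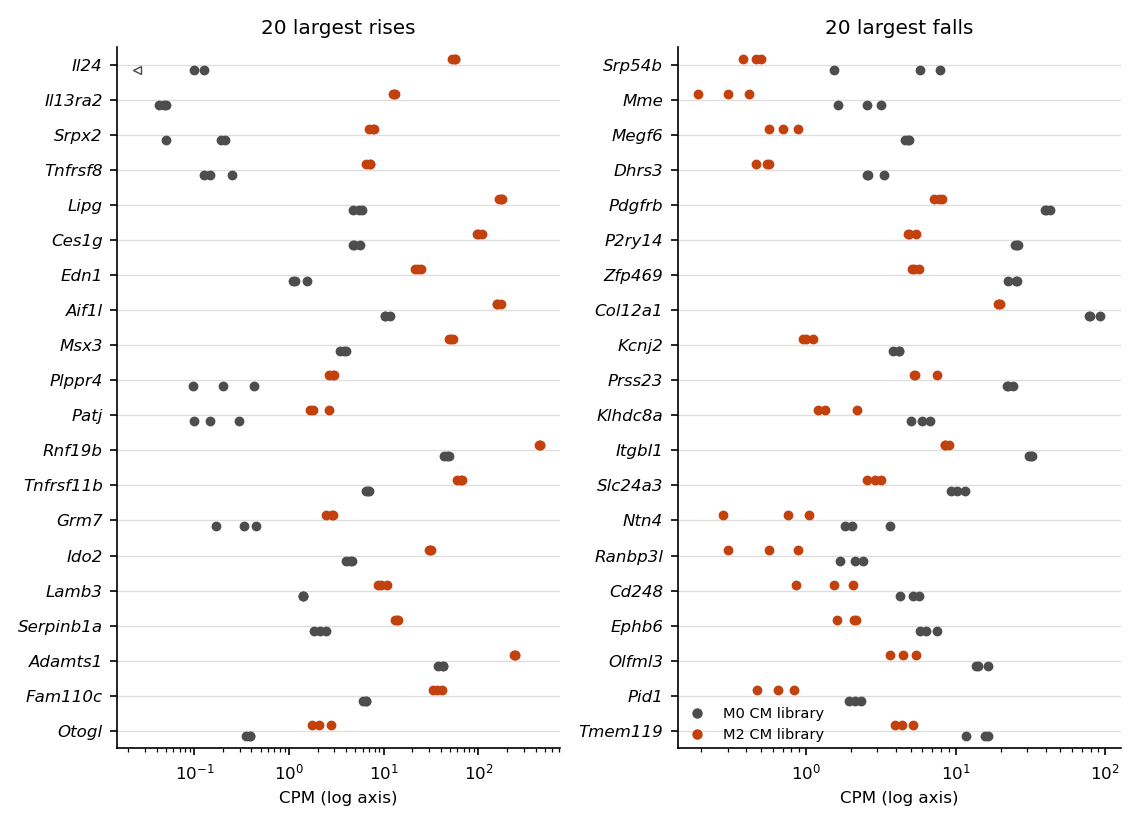
CPM of the 20 largest rises (left) and the 20 largest falls (right) in each M0 CM and M2 CM library, on log axes, with an open triangle at the left edge for a library with no count (1 M0 CM library of Il24). In each row the groups are apart, as the rule for these genes required, and the widest spread within a group is that of Srp54b in M0 CM.

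Among genes that changed at least 1.5-fold, the 10 with the largest differences in CPM were abundant ones. Larger differences at smaller folds, such as those of Vim and Fn1 below, are outside this set. Prl2c2, a proliferin of a multi-copy prolactin family (chromosome 13, 12996125 to 13005383), stood at 809.9, 732 and 772 CPM in the M0 CM libraries and 1633, 1581 and 1631 CPM in the M2 CM libraries, 2.09-fold higher with no overlap (edgeR adjusted p 1.22e-31). Lox, the lysyl oxidase that cross-links collagen and elastin, stood at 206, 248 and 207 CPM in the M0 CM libraries and 908, 958 and 1006 CPM in the M2 CM libraries. Each M2 CM library was over each M0 CM library, and the rise was 4.35-fold (log2 fold change 2.12 (SE 0.08), edgeR adjusted p 2.45e-08); a lowly counted antisense gene, AC161119.1, overlaps it. Ccl2, a monocyte chemokine, rose from 233 ± 10.7 to 803 ± 29.6 CPM, and Il1rl1, the receptor of interleukin-33, from 282 ± 18.2 to 697 ± 27.0 CPM. Igfbp6, which binds insulin-like growth factor II, rose from 279.6 ± 13.6 to 767 ± 10.8 CPM, and Rtn4, a reticulon of the endoplasmic reticulum, from 723 ± 19.3 to 1252 ± 18.4 CPM. The falls in this set were Col1a2, from 1476 ± 53.7 to 911 ± 9.40 CPM, and Lrp1, an endocytic receptor, from 1352 ± 25.9 to 874 ± 27.6 CPM. Rnf19b and Nfkb1 complete the 10.

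The parts of the interleukin-4 pathway moved unevenly. Of 10 receptor and kinase genes 3 rose and 5 fell. Besides Il13ra2, the signalling chain Il13ra1 rose modestly, at 49.9, 53.3 and 52.8 CPM in the M0 CM libraries and 67.0, 65.5 and 65.5 CPM in the M2 CM libraries, with no overlap (log2 fold change 0.35 (SE 0.05), edgeR adjusted p 1.00e-07). Il4ra, the chain that binds interleukin-4 itself (chromosome 7, 125552120 to 125579474), stood at 68.4, 73.3 and 66.9 CPM in the M0 CM libraries and 52.9, 53.3 and 53.7 CPM in the M2 CM libraries. Each M2 CM library was lower (log2 fold change -0.38 (SE 0.05), edgeR adjusted p 2.85e-09). Il2rg, the common gamma chain of blood cells, was low and rose from 1.44 ± 0.225 to 2.83 ± 0.167 CPM. Tyk2 fell from 41.1 ± 0.657 to 33.5 ± 0.996 CPM, and the insulin receptor substrates Irs1 and Irs2, which also dock to the interleukin-4 receptor, fell from 34.6 ± 0.528 to 23.9 ± 0.605 CPM and from 18.5 ± 1.91 to 14.4 ± 0.990 CPM. Jak3 fell from 18.4 ± 1.34 to 15.7 ± 1.45 CPM with overlapping groups, a call lost without M0 CM 1, M0 CM 3, M2 CM 2 or M2 CM 3 (edgeR adjusted p 0.0767 to 0.179), while Jak1 (239 ± 7.87 and 234 ± 4.23 CPM) and Jak2 (31.6 ± 1.53 and 32.4 ± 3.16) did not pass.

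The STAT genes themselves moved little. Stat6 was at 138, 139.8 and 140.3 CPM in the M0 CM libraries and 146, 145 and 137 CPM in the M2 CM libraries, so the groups overlapped (log2 fold change 0.03 (SE 0.04), edgeR adjusted p 0.554). Stat3 rose from 153 ± 1.33 to 165 ± 4.47 CPM, a call lost without M2 CM 1 (edgeR adjusted p 0.0765) and with library sizes alone (0.202). Stat2 fell from 25.7 ± 1.82 to 21.9 ± 0.724 CPM, and Stat5a and Stat5b did not pass. Some feedback inhibitors moved more. Of 14, 5 rose and 2 fell, and 4 fell with library sizes alone. The other 7 did not pass, while 39.4% of all genes tested were called. The median log2 fold change of the list was 0.016, against -0.0035 for all genes tested. Socs1, which blocks Janus kinases (chromosome 16, 10782240 to 10785536), stood at 17.5, 20.6 and 18.9 CPM in the M0 CM libraries and 61.2, 58.3 and 70.5 CPM in the M2 CM libraries, with no overlap (log2 fold change 1.74 (SE 0.10), edgeR adjusted p 6.41e-09). Cish, a SOCS protein induced through STAT5, rose from 0.814 ± 0.424 to 4.62 ± 0.0502 CPM, Socs3 from 33.6 ± 1.29 to 44.8 ± 2.12 CPM and Socs5 from 81.9 ± 2.45 to 107 ± 2.26 CPM. Socs2, a brake on growth hormone signalling (chromosome 10, 95385362 to 95417180), moved the other way, at 13.5, 15.2 and 15.6 CPM in the M0 CM libraries and 5.57, 4.77 and 6.61 CPM in the M2 CM libraries (log2 fold change -1.38 (SE 0.11), edgeR adjusted p 1.81e-15), and Pias3, an inhibitor of STAT3, fell from 53.7 ± 1.62 to 37.6 ± 0.716 CPM. Of 36 genes listed as interleukin-4 or STAT6 targets, mostly in macrophages and airway, 18 passed the filter, of which 8 rose and 4 fell (median log2 fold change 0.26). Postn, a matricellular protein induced by interleukin-13 in airway epithelium, rose from 9.95 ± 0.727 to 32.0 ± 2.24 CPM, and the cadherin Cdh26 fell from 88.1 ± 3.51 to 32.5 ± 0.987 CPM. The interleukin-10 and interleukin-20 family list had 3 of 11 genes past the filter: Il24, and the receptor chains Il20rb (1.21 ± 0.297 and 1.66 ± 0.102 CPM) and Il10rb (8.83 ± 0.775 and 9.17 ± 0.749 CPM), which did not pass the test.

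Among NF-kB genes more rose than fell, with 15 of 26 higher and 1 lower (median 0.21); with library sizes alone 5 were lower. Nfkb1, which encodes the p105 precursor of the p50 subunit (chromosome 3, 135584655 to 135691547), stood at 167, 169 and 166 CPM in the M0 CM libraries and 566, 569 and 569.5 CPM in the M2 CM libraries. The libraries of each group lay close together and far from the other group (log2 fold change 1.76 (SE 0.03), edgeR adjusted p 3.90e-41). Traf1, an adaptor of TNF receptors, rose from 30.2 ± 0.391 to 55.0 ± 5.08 CPM, Nfkbia, the inhibitor I-kappa-B-alpha, from 160.0 ± 9.54 to 230.4 ± 6.52 CPM, and Map3k14, the kinase of the non-canonical pathway, from 70.7 ± 0.532 to 92.8 ± 0.545 CPM. Nfkbiz was the gene that fell, from 57.9 ± 0.733 to 39.9 ± 1.70 CPM. Chemokines passed the filter for 17 of 30 genes, of which 8 rose and 1 fell (median 0.74), or 52.9% called against 39.4% of all genes tested. Cxcl1, a neutrophil attractant, stood at 71.0, 73.3 and 70.8 CPM in the M0 CM libraries and 226, 249 and 235 CPM in the M2 CM libraries (log2 fold change 1.72 (SE 0.07), edgeR adjusted p 4.33e-10), with every M2 CM library above every M0 CM library. Ccl7, a monocyte attractant, rose 3.07-fold from 149 ± 0.944 to 458 ± 5.79 CPM, and Ccl9 4.98-fold from 2.64 ± 0.170 to 13.2 ± 0.937 CPM. Ccl5 rose from 7.20 ± 0.239 to 12 ± 1.25 CPM, and Cx3cl1, a membrane-bound chemokine, fell from 59.4 ± 3.44 to 45.9 ± 2.53 CPM.

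Of 21 other cytokines 2 rose and 6 fell, a share of 38.1% called that is near the 39.4% of all genes tested. Lif, leukaemia inhibitory factor, rose from 17.1 ± 0.333 to 39.9 ± 0.395 CPM and Mif from 823 ± 27.0 to 934 ± 7.53 CPM, whereas Spp1, which encodes osteopontin, fell from 317 ± 3.94 to 261 ± 2.13 CPM, Clcf1 from 31.6 ± 1.67 to 25.4 ± 2.49 CPM and Il18 from 4.94 ± 0.289 to 3.39 ± 0.631 CPM. Without the second M0 CM library 3 of them fell in place of 6. Of 24 cytokine receptors 10 rose and 5 fell (median 0.05). Il6st, the gp130 chain shared by receptors of interleukin-6, Lif and others (chromosome 13, 112464070 to 112510086), stood at 347, 363 and 359.8 CPM in the M0 CM libraries and 621, 620.0 and 618 CPM in the M2 CM libraries, without overlap (log2 fold change 0.80 (SE 0.03), edgeR adjusted p 2.37e-26). Il1rap, the partner chain of interleukin-1 and interleukin-33 receptors, rose from 28.1 ± 1.07 to 56.2 ± 2.51 CPM, Il17rc from 50 ± 0.856 to 91.7 ± 4.12 CPM, Ifngr2 from 48.8 ± 0.636 to 84.8 ± 1.97 CPM and the death receptor Fas from 4.12 ± 0.795 to 14.5 ± 1.30 CPM.

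Interferon-response genes were more often lower than higher. On the interferon-gamma list 12 of 28 fell and 2 rose (median -0.24), and on the type I list 15 of 38 fell and 4 rose (median -0.25). Gbp2, a guanylate-binding protein (chromosome 3, 142620602 to 142638008), stood at 25.7, 26.6 and 25.2 CPM in the M0 CM libraries and 12.3, 14.5 and 13.8 CPM in the M2 CM libraries, with no overlap (log2 fold change -0.94 (SE 0.07), edgeR adjusted p 1.73e-13). The immunity-related GTPases Irgm1 and Ifi47 fell from 32.4 ± 1.65 to 24.0 ± 1.16 CPM and from 30.3 ± 2.19 to 20.9 ± 1.69 CPM, and Trim30a, a TRIM protein, from 24.4 ± 1.18 to 15.9 ± 1.23 CPM. Socs1, described above, is 1 of the 2 that rose on the first list. Of 23 genes of MHC class I and peptide loading, 8 fell and 3 rose (median -0.10), or 47.8% called against 39.4% of all genes tested. B2m, the light chain of class I molecules, fell from 615 ± 7.05 to 536 ± 6.13 CPM, while Calr, a chaperone of the loading complex that is also on the endoplasmic reticulum list, rose from 899 ± 11.5 to 1181 ± 66.0 CPM. Checkpoint ligands passed the filter for 9 of 15 genes. Cd47, the signal that restrains phagocytosis, rose from 158 ± 7.34 to 232 ± 4.25 CPM, Pvr, a ligand of TIGIT, from 22.8 ± 0.456 to 31.5 ± 0.927 CPM, and Lgals3 from 642 ± 22 to 792 ± 14.5 CPM. Lgals9 fell from 56.0 ± 2.09 to 43.3 ± 0.938 CPM and Tnfrsf14 from 2.38 ± 0.275 to 1.29 ± 0.277 CPM. Cd274, which encodes PD-L1, was at 0.504 ± 0.265 and 0.429 ± 0.195 CPM and did not pass.

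Complement genes split. C3, the central component (chromosome 17, 57203970 to 57228136), stood at 124, 138 and 129 CPM in the M0 CM libraries and 508, 498 and 495 CPM in the M2 CM libraries. This was a 3.85-fold rise with no overlap (log2 fold change 1.94 (SE 0.04), edgeR adjusted p 1.26e-21). Masp1, a protease of the lectin pathway, rose from 10.6 ± 0.988 to 42.5 ± 1.78 CPM. Clu, which encodes clusterin, fell from 116 ± 5.96 to 69.6 ± 1.55 CPM, C1ra from 63.4 ± 2.62 to 57.9 ± 2.25 CPM and Cfp, properdin, from 4.46 ± 0.798 to 3.33 ± 0.201 CPM. The calls of the last pair were weak: leaving out M2 CM 2, M0 CM 2 or M0 CM 3 ended that of C1ra (edgeR adjusted p 0.0934 to 0.150), and leaving out any library but M0 CM 2 ended that of Cfp (0.0519 to 0.315). Few acute phase genes were expressed: 6 of 20 passed the filter. Serpina3g had 1 count in M0 CM and 65 in M2 CM, a ratio of 66.9 (exact 95% interval 11.6 to 2684), and Saa3 had 28 and 8, a fall that did not pass without M0 CM 2 (edgeR adjusted p 0.117). Toll-like receptors and sensors had 4 of 24 higher and 4 lower (7 lower with library sizes alone), or 33.3% called against 39.4% of all genes tested, with Nod1, a sensor of bacterial peptidoglycan, at 7.28 ± 1.27 CPM in M0 CM and 14.7 ± 0.50 CPM in M2 CM among those that rose.

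Most collagen genes tested fell, while some of the enzymes that process collagen rose. Of 32 collagen genes 21 passed the filter, 14 fell and 3 rose (median -0.57, against -0.0035 for all genes tested). Col1a1, a chain of fibrillar type I collagen (chromosome 11, 94936224 to 94953042), stood at 476, 503 and 468 CPM in the M0 CM libraries and 229, 231 and 236 CPM in the M2 CM libraries, 2.08-fold lower without overlap (log2 fold change -1.06 (SE 0.04), edgeR adjusted p 3.74e-21). Its partner chain Col1a2 stood at 1453, 1537 and 1437 CPM in the M0 CM libraries and 900.5, 917 and 916 CPM in the M2 CM libraries (log2 fold change -0.70 (SE 0.03), edgeR adjusted p 6.28e-24), again apart. Col5a2, of the type V collagen that starts fibrils, fell from 412 ± 10 to 236 ± 3.68 CPM, Col3a1 from 325 ± 9.75 to 159 ± 2.77 CPM and Col18a1, the source of endostatin, from 279.9 ± 12.5 to 153 ± 1.43 CPM. The 3 that rose, named after their values were seen, were the beaded-filament chains Col6a1 (286 ± 6.66 to 370.0 ± 6.72 CPM) and Col6a2 (37.6 ± 1.08 to 55.3 ± 1.45 CPM) and Col27a1 (34.1 ± 3.44 to 41.0 ± 2.51 CPM). Among 17 processing and cross-linking genes 5 rose and 8 fell, though only 4 to 5 fell when 1 of M0 CM 2, M2 CM 1 or M2 CM 2 was left out. Besides Lox, the lysyl oxidase homologue Loxl4 rose from 112 ± 2.09 to 184 ± 2.96 CPM, and Serpinh1, the collagen chaperone HSP47, from 1111 ± 5.64 to 1310.1 ± 20.5 CPM. The procollagen protease Bmp1 fell from 161 ± 5.78 to 121 ± 2.83 CPM and its enhancer Pcolce from 592 ± 11.8 to 401 ± 7.79 CPM.

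Other matrix genes went both ways. Of 28 glycoproteins and proteoglycans 11 rose and 12 fell (median -0.16). Bgn, the small proteoglycan biglycan (chromosome X, 73483602 to 73495933), stood at 551, 562 and 538 CPM in the M0 CM libraries and 302, 305 and 299 CPM in the M2 CM libraries (log2 fold change -0.87 (SE 0.03), edgeR adjusted p 5.19e-27), with M2 CM lower and apart. Thbs1 and Thbs2, the thrombospondins, fell from 172 ± 1.51 to 99.9 ± 1.13 CPM and from 168 ± 2.60 to 80.6 ± 3.49 CPM, and Fbln5, of elastic fibres, from 41.0 ± 1.33 to 17.7 ± 1.11 CPM, whereas Fbn1, fibrillin-1, rose from 465 ± 17.1 to 692 ± 14.5 CPM. Among 27 proteases and inhibitors 11 rose and 4 fell (median 0.14). Plau, the urokinase plasminogen activator (chromosome 14, 20836660 to 20843385), stood at 16.4, 18.9 and 17.3 CPM in the M0 CM libraries and 59.4, 63.6 and 62.8 CPM in the M2 CM libraries, 3.54-fold higher with no overlap (log2 fold change 1.82 (SE 0.07), edgeR adjusted p 3.07e-28). Adamts5, an aggrecanase, rose 4.66-fold from 7.11 ± 0.627 to 33.1 ± 2.82 CPM, while the inhibitor Timp3 fell from 280.4 ± 10.9 to 151 ± 5.34 CPM and the gelatinase Mmp2 from 61.2 ± 0.802 to 41.8 ± 1.70 CPM. Integrins and laminins had 8 of 22 higher and 9 lower. The laminin chain Lamb1 rose from 453 ± 7.33 to 745 ± 10.1 CPM, and Itgb4, the integrin of hemidesmosomes, fell from 41.6 ± 1.70 to 21.1 ± 1.25 CPM.

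**Figure D3:**
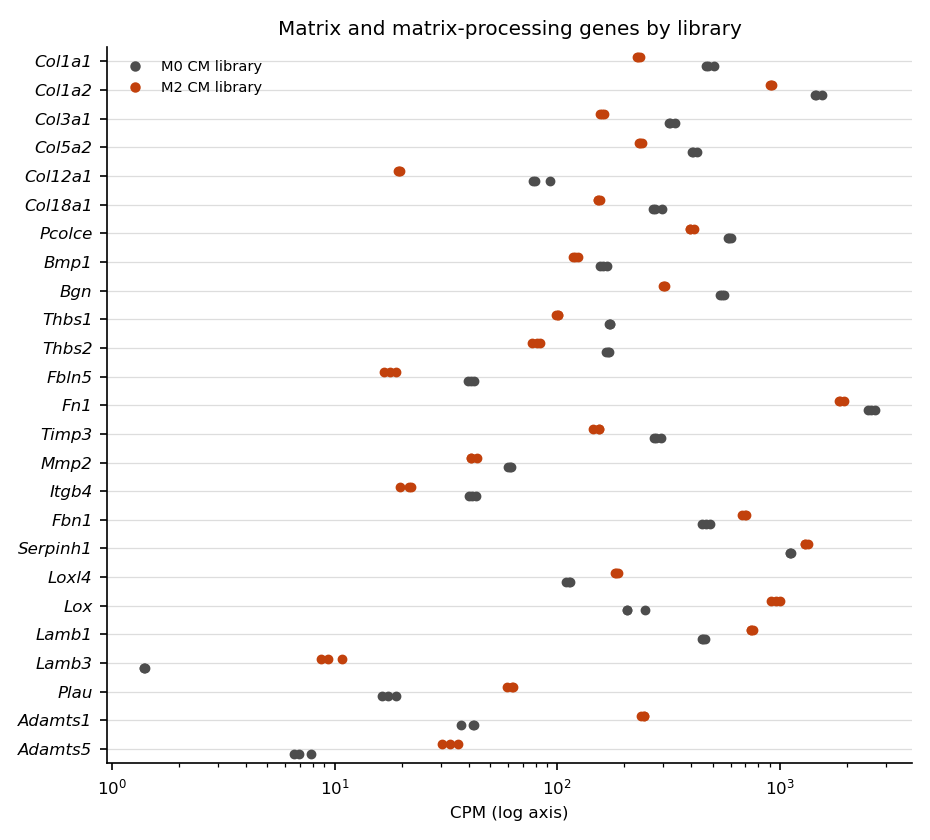
CPM of matrix genes and of genes that process matrix, in each M0 CM and M2 CM library, on a log axis. From Col1a1 down to Itgb4 the M2 CM libraries are lower, and from Fbn1 down to Adamts5 they are higher, by up to 6.88-fold for Lamb3.

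Genes of mesenchymal state were mostly lower, in a cell line where some fibroblast-type genes, such as Fn1 and Col1a2, were high in both groups. Of 15 tested, 10 fell and 2 rose (median -0.24). Snai1, a transcription factor that represses E-cadherin (chromosome 2, 167538195 to 167542814), stood at 58.5, 64.6 and 60.1 CPM in the M0 CM libraries and 33.6, 28.9 and 31.0 CPM in the M2 CM libraries, with no overlap (log2 fold change -0.97 (SE 0.08), edgeR adjusted p 1.03e-09). Twist2 fell from 14.5 ± 0.564 to 7.50 ± 0.558 CPM, Snai2 from 10 ± 0.853 to 6.38 ± 0.748 CPM, Prrx1 from 119.9 ± 0.744 to 85.2 ± 3.94 CPM, the intermediate filament Vim from 4634 ± 103 to 3811 ± 51.2 CPM and fibronectin, Fn1, from 2576 ± 102 to 1881 ± 55.4 CPM. In contrast, Zeb1 and Zeb2, which also repress E-cadherin, rose, Zeb1 from 99.6 ± 4.39 to 113 ± 1.96 CPM and Zeb2 from 44.1 ± 1.80 to 54.8 ± 3.94 CPM. Epithelial genes passed the filter for 16 of 39, with 6 higher and 4 lower (median 0.16). Krt8 (chromosome 15, 101996698 to 102004482) stood at 267, 275 and 258 CPM in the M0 CM libraries and 432, 472 and 456 CPM in the M2 CM libraries, and its partner Krt18 (chromosome 15, 102028180 to 102032027) at 104, 112 and 98.3 CPM in the M0 CM libraries and 245, 283 and 262 CPM in the M2 CM libraries. Both were higher in every M2 CM library (edgeR adjusted p 2.08e-24 and 2.73e-09). The tight-junction gene Cldn1 fell from 5.58 ± 0.310 to 1.78 ± 0.564 CPM, and Cdh1, which encodes E-cadherin, stayed at or near 0.

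Signalling lists of development had more genes lower than higher. Of 27 TGF-beta and BMP genes 12 fell and 4 rose (median -0.11). Id2, a target of BMP signalling (chromosome 12, 25093799 to 25097140), stood at 114, 112 and 113 CPM in the M0 CM libraries and 59.0, 58.6 and 61.4 CPM in the M2 CM libraries (log2 fold change -0.92 (SE 0.05), edgeR adjusted p 1.28e-20), lower and apart. Smad3, a mediator of TGF-beta, fell from 109 ± 2.53 to 71.5 ± 0.982 CPM, the latency protein Ltbp1 from 303 ± 14.3 to 202 ± 6.44 CPM and Fstl1 from 331 ± 7.48 to 211 ± 2.74 CPM, while the BMP antagonist Grem1 rose 5.52-fold from 1.98 ± 0.102 to 11.0 ± 1.98 CPM. No Notch gene of 8 tested rose and 5 fell (median -0.51), among them Notch1 from 14.7 ± 1.24 to 9.59 ± 1.54 CPM, Notch4 from 3.90 ± 0.109 to 1.72 ± 0.540 CPM and the ligand Jag1 from 14.4 ± 1.04 to 10.9 ± 0.944 CPM. Wnt genes had 6 of 22 lower and 1 higher, a share called (31.8%) under that of all genes tested (39.4%), and YAP and TEAD targets 10 of 20 lower and 4 higher. The YAP target Ankrd1 nevertheless stood at 50.7, 51.1 and 52.4 CPM in the M0 CM libraries and 131, 144 and 128 CPM in the M2 CM libraries, higher without overlap (log2 fold change 1.39 (SE 0.07), edgeR adjusted p 4.85e-12), and Ccn1 rose from 127 ± 4.21 to 179 ± 7.44 CPM. Axon guidance genes had 17 of 34 lower and 7 higher (median -0.22). Sema7a, a membrane-anchored semaphorin that binds integrins (chromosome 9, 57940112 to 57962865), stood at 16.7, 15 and 14.6 CPM in the M0 CM libraries and 61.6, 62.5 and 64.7 CPM in the M2 CM libraries, 4.07-fold higher (log2 fold change 2.02 (SE 0.07), edgeR adjusted p 3.15e-28). Sema3c rose 3.09-fold from 37.2 ± 0.463 to 115 ± 8.42 CPM, and the netrin receptor Unc5b fell from 137 ± 5.40 to 61.4 ± 1.73 CPM, Ephb2 from 98.3 ± 2.39 to 54.9 ± 2.27 CPM and Sema5a from 193 ± 2.90 to 129 ± 7.20 CPM.

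Growth factor systems differed by family. The share called was 60.0% on the EGF list, 60.0% on the PDGF list and 60.7% for other receptor tyrosine kinases. Over all genes tested it was 39.4%. In the EGF family, 6 of 10 genes rose and none fell (median 0.32). Errfi1, a feedback inhibitor of the EGF receptor (chromosome 4, 150853919 to 150868892), stood at 125, 129.8 and 124 CPM in the M0 CM libraries and 422, 439 and 419.7 CPM in the M2 CM libraries, 3.39-fold higher without overlap (log2 fold change 1.76 (SE 0.04), edgeR adjusted p 7.05e-39). The ligands Hbegf, Areg and Ereg rose from 11.3 ± 0.407 to 25.6 ± 0.338 CPM, from 2.09 ± 0.360 to 4.78 ± 0.424 CPM and from 52.8 ± 3.20 to 70.4 ± 4.26 CPM, and Egfr itself from 60.0 ± 1.04 to 70.5 ± 2.87 CPM. The call of Ereg was lost without M0 CM 2 or M2 CM 3 (edgeR adjusted p 0.0515 and 0.0534). In the PDGF family 3 of 5 fell and none rose. Besides Pdgfrb, the alpha receptor Pdgfra fell from 236 ± 4.73 to 168 ± 3.60 CPM and the ligand Pdgfc from 7.37 ± 1.02 to 4.93 ± 1.09 CPM, while Pdgfa did not pass (23.7 ± 0.403 and 25.1 ± 1.16 CPM). Other receptor tyrosine kinases and ligands had 12 of 28 lower and 5 higher. Vegfc, a lymphatic growth factor, rose from 12.5 ± 0.630 to 27.8 ± 1.27 CPM, and Angpt1, a ligand of the Tie2 receptor, fell from 7.19 ± 0.467 to 2.51 ± 0.176 CPM. Of 20 ERK feedback genes 8 rose and 2 fell, with Phlda1 at 12.5 ± 1.02 to 27.6 ± 0.633 CPM. Of 26 AP-1 and immediate early factors 10 rose and 3 fell (median 0.20), with Bhlhe40 rising from 16.3 ± 2.89 to 28.7 ± 2.42 CPM and Maf falling from 71.4 ± 1.55 to 41.0 ± 0.842 CPM.

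Most genes tested on the lists of growth and protein supply rose, by small amounts. Of 33 Myc and ribosome biogenesis genes 29 rose and 1 fell (median 0.41). Myc (chromosome 15, 61985391 to 61990374) stood at 109.6, 118 and 106 CPM in the M0 CM libraries and 204, 205 and 217 CPM in the M2 CM libraries, higher without overlap (log2 fold change 0.91 (SE 0.04), edgeR adjusted p 3.84e-24). The nucleolar genes Ncl and Nolc1 rose, the first from 1366 ± 20.8 to 1923 ± 60.7 CPM and the other from 258 ± 1.66 to 378 ± 6.91 CPM, and the Myc antagonist Mxd4, chosen after its values were seen as the gene of this list that fell, went from 30.5 ± 1.62 to 16.3 ± 1.21 CPM. Of 39 amino acid and integrated stress response genes 27 rose and 3 fell (median 0.33). Psat1 and Shmt2, of serine and glycine synthesis, rose from 264 ± 4.78 to 364 ± 4.52 CPM and, for Shmt2, from 266 ± 6.36 to 367 ± 5.76 CPM, and the arginine transporter Slc7a1 from 137 ± 3.23 to 195 ± 5.76 CPM. The endoplasmic reticulum list had 18 of 28 higher and 1 lower (median 0.17), led by the chaperone Hspa5 (log2 fold change 0.53). Among polyamine, arginine, tryptophan and prostaglandin enzymes 12 of 19 rose and 1 fell (median 0.28), with the spermidine synthase Srm at 104 ± 3.41 to 143 ± 5.69 CPM and the argininosuccinate synthase Ass1 at 23.5 ± 2.08 to 36.1 ± 3.26 CPM.

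Cell cycle, survival and metabolic lists were mixed, and the shares called of cholesterol (43.5%), glycolysis (45.2%) and stem cell genes (42.9%) were near the 39.4% of all genes tested. Mitosis and replication genes had 19 of 46 higher and 6 lower (median 0.05), but 11 were higher with library sizes alone and 12 without M2 CM 2. The CDK inhibitor Cdkn1b fell from 127 ± 4.32 to 90.1 ± 1.58 CPM and Ccng2, a cyclin of quiescent cells, from 43.9 ± 2.24 to 25.9 ± 1.08 CPM, while Ccnd2 rose from 93.5 ± 2.04 to 120.4 ± 1.49 CPM. In the BCL2 family, Bmf, a killer of the BH3-only class, fell from 8.63 ± 0.660 to 3.35 ± 0.440 CPM and the survival gene Bcl2l1 from 47.0 ± 2.08 to 37.7 ± 1.78 CPM, whereas Bid rose from 41.1 ± 2.37 to 55.8 ± 2.83 CPM and Mcl1 from 175 ± 5.77 to 200.4 ± 4.07 CPM; 3 of 12 rose and 3 fell, or 5 fell with library sizes alone. Of 22 p53 targets 10 rose and 3 fell. Lipid handling had 11 of 25 higher and 7 lower, with the triglyceride lipase Pnpla2 rising from 30.5 ± 0.573 to 47.8 ± 1.44 CPM and the lipid-droplet coat Plin2 falling from 216 ± 8.99 to 168 ± 7.31 CPM. Fatty acid synthesis had 3 of 13 higher and 4 lower, with the desaturase Scd1 falling from 431 ± 18.8 to 360.1 ± 5.38 CPM and the synthase Fasn rising from 1094 ± 17.1 to 1218 ± 21.9 CPM. Cholesterol genes were even at 5 higher and 5 lower of 23, but stood at 3 and 11 with library sizes alone, and 3 were lower without M2 CM 1 or M0 CM 2. Glycolysis and hypoxia genes were at 7 and 7 of 31, with 14 lower under library sizes alone and 11 without M0 CM 3, oxidative phosphorylation genes at 14 higher and 0 lower of 28, or 7 and 3 under that scaling, and lysosomal genes at 5 and 9 of 23, with 3 higher under it or without M0 CM 3. Of 26 NRF2 and glutathione genes 7 rose and 10 fell, with Gclm rising from 86.6 ± 3.94 to 130.4 ± 6.49 CPM and Gstm1 falling from 121 ± 8.0 to 77.1 ± 4.51 CPM. Of 16 metal-handling genes 7 rose and 3 fell. Among 14 stem cell and drug efflux genes 4 rose and 2 fell: the transporter Abcb1b rose from 139 ± 4.05 to 189 ± 5.48 CPM and Aldh3a1 fell from 25.1 ± 5.48 to 14.7 ± 2.50 CPM, a call lost without M2 CM 2 (edgeR adjusted p 0.0522).

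**Figure D4:**
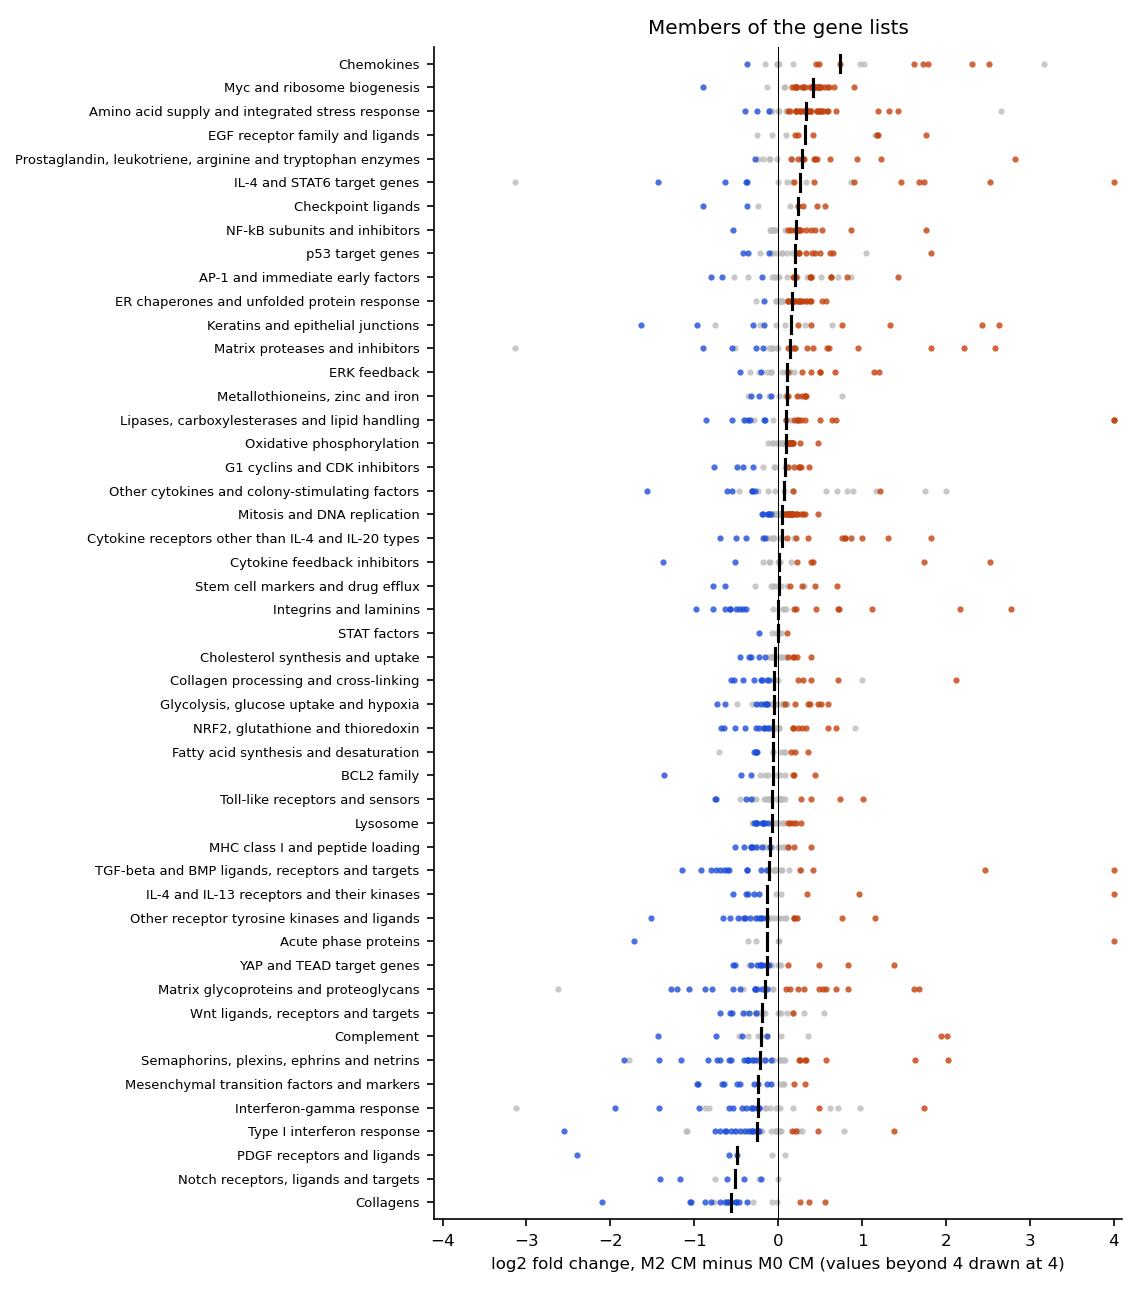
Log2 fold change, M2 CM minus M0 CM, of each tested member of the gene lists with at least 5 tested members, ordered by list median (black bar); orange points rose, blue points fell and grey points did not pass the test. Medians run from -0.57 for collagens to 0.74 for chemokines, and single genes reach far outside most of them.

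The 2 other macrophage media give the levels of these genes a wider setting. M2 CM was compared directly with M1 CM, where 8157 genes passed (27.8% higher in M2 CM and 28.4% lower), and with TAM CM, where 9919 passed (34.1% higher and 34.3% lower). Both comparisons share the M2 CM libraries that chose the rises and falls, so values of single genes are given side by side, with no test. Il24 was at 0.490 ± 0.334 CPM in M1 CM and 0.0170 ± 0.0294 in TAM CM, against 54.8 ± 2.48 in M2 CM. Lipg was at 14.7 ± 0.792 and 1.29 ± 0.116 CPM in M1 CM and TAM CM, and Ces1g at 0.765 ± 0.508 and 0.421 ± 0.108, both under their M2 CM levels. Nfkb1 stood at 168 ± 0.534 CPM in M1 CM and 122 ± 1.21 in TAM CM, close to or under its M0 CM level, and Lox at 224 ± 15.2 and 158 ± 3.41. Edn1 was at 1.48 ± 0.440 and 2.38 ± 0.156 CPM. Il13ra2 was at 3.64 ± 0.389 CPM in M1 CM and 1.16 ± 0.395 in TAM CM. Both levels were under the 12.8 ± 0.212 CPM of M2 CM but over the 0.0468 ± 0.0038 CPM of M0 CM, so its rise was not confined to M2 CM.

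Some genes that rose in M2 CM had a mean in another medium that was near or over it. Ido2 stood at 44.5 ± 3.75 CPM in M1 CM and 30.8 ± 0.589 in M2 CM, and Ccl2 at 1804 ± 294 and 803 ± 29.6 CPM. Il1rl1 was at 2814 ± 223 CPM in M1 CM and 1565 ± 24.6 in TAM CM, both over its M2 CM level. Socs1 was at 71.2 ± 8.62 CPM in M1 CM and 63.3 ± 6.38 in M2 CM, and Otogl at 1.66 ± 0.325 CPM in TAM CM and 2.19 ± 0.513 in M2 CM. Among the falls, Pdgfrb was at 29.7 ± 2.21 CPM in M1 CM, 13.4 ± 0.910 in TAM CM and 7.71 ± 0.457 in M2 CM. P2ry14 was at 6.64 ± 0.390 and 6.15 ± 1.22 CPM in those media, and Col12a1 at 7.56 ± 0.134 and 6.39 ± 0.338, under its M2 CM level. Slc24a3 went the opposite way in TAM CM, at 50.4 ± 2.09 CPM against 10.4 ± 1.16 in M0 CM. Gbp2 was at 1114 ± 38.6 CPM in M1 CM against 13.5 ± 1.14 in M2 CM.

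**Figure D5:**
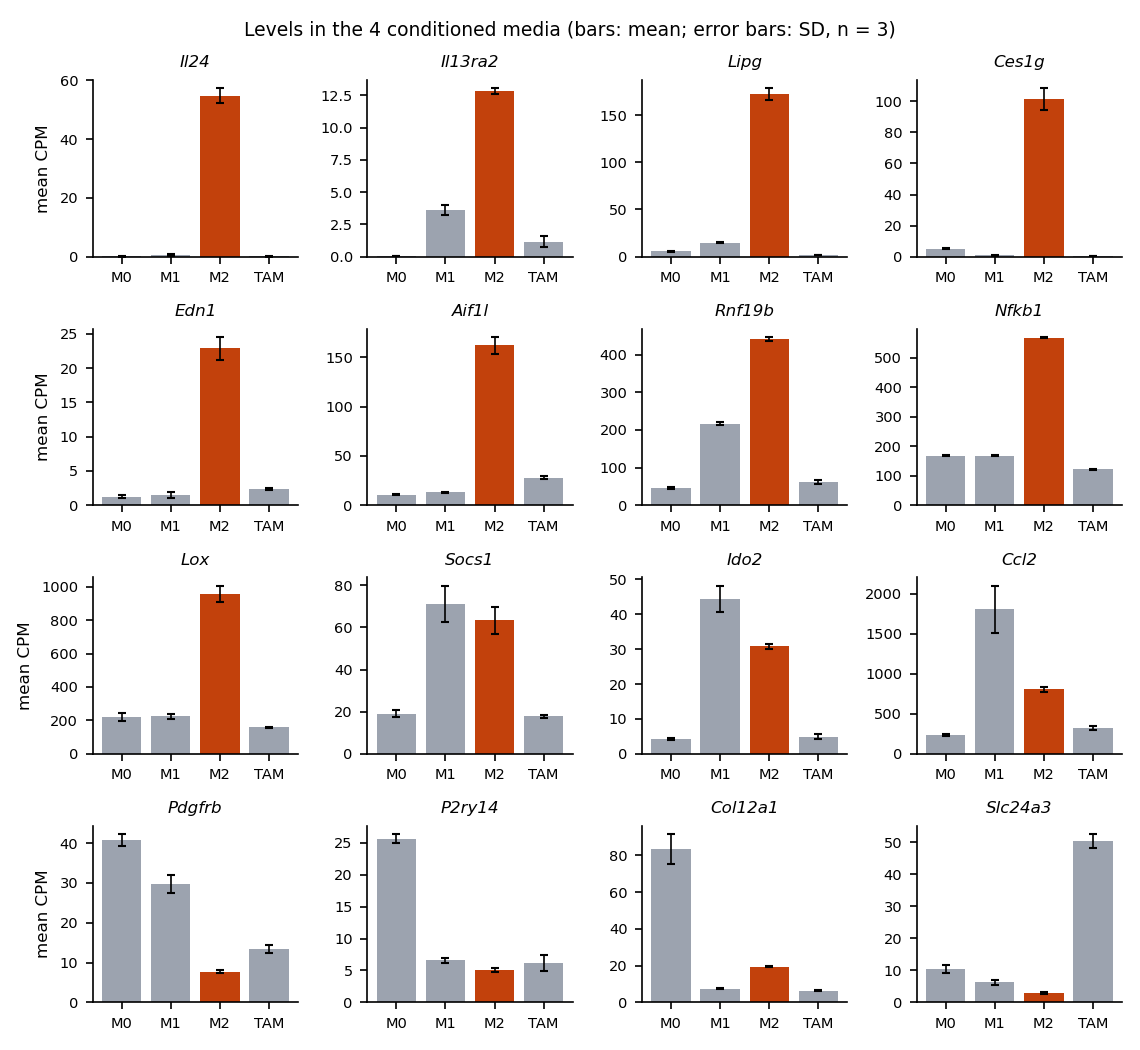
Mean CPM in the 4 conditioned media, with error bars of 1 SD over 3 libraries, each panel on its own scale from 0 and M2 CM in orange. Il24, Ces1g, Nfkb1 and Lox have their highest bar in M2 CM, Ido2 and Ccl2 in M1 CM, and Pdgfrb has its lowest bar in M2 CM.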

How the data were processed

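RNA of SCC7 cells was sequenced as mRNA libraries from Trizol extracts, per the labels' protocols. The authors deposited raw read counts per Ensembl gene. The submitters' processing notes list HISAT2 2.0 and mm10, while the sources used here give no counting tool, annotation release or strand setting. Libraries were grouped by title, and 55141 of 55487 identifiers matched a symbol of GENCODE release M21, the source of coordinates (mm10). That release may not be the authors'. Without a strand setting, reads cannot be told apart for genes that overlap on opposite strands with sizeable counts: Bid and Bcl2l13, Col18a1 and Slc19a1, Shmt2 and Ndufa4l2, Stat6 and Nab2, Stat3 and Stat5a, P2ry14 and Med12l.

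Counts were filtered by filterByExpr, scaled by TMM and fitted over all 12 libraries with 1 mean per group by edgeR 4.0.16 (glmQLFit, robust, then glmQLFTest) in R 4.3.3. P-values were adjusted by Benjamini-Hochberg over the 14509 genes tested, with a threshold of 0.05. The genes removed held 0.0815% of the counts. CPM was taken on library sizes scaled by TMM, where 1 CPM is 19.9 to 23.5 counts. The SE was derived by dividing the log2 fold change by the root of the F statistic and understates the counting error of genes near 0. Counting intervals cover counting error only.

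Some genes are not reported here. Genes named are the 20 largest rises and falls that passed, with at least 2 CPM in the higher group, no overlap between groups and no predicted gene, the 10 largest CPM changes of at least 1.5-fold, the called members of each of 50 gene lists with the lowest p (at most 5), any member of a list of at most 15 tested, and main cell type markers. The members and lists were chosen with earlier results of these data known, so lists are described by counts and were not tested. On simulated counts of 13923 genes the test recovered 31, 41, 49 and 50 of 50 genes changed 1.25, 1.5, 2 and 4-fold between M2 CM and M0 CM, and called 8 of 13723 unchanged genes. The changed genes were drawn from those with over 20 expected counts in the smallest library. All other genes had the M0 CM level in every group. The real comparison had 39.4% of genes called, so these rates may not hold for it, nor for genes with fewer counts. Alternatives were DESeq2 1.42.0, other scalings and filters, a fit of 2 groups, the replicate number as a block, glmTreat and each library left out. Figures were drawn with matplotlib 3.10.9.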

Additional observations from a re-analysis of the deposited data

How the results depend on the processing

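No alternative reversed the sign of any gene among the 5723 called between M2 CM and M0 CM, wherever it could be fitted. The glmTreat test keeps the fitted fold changes, so it could not reverse one, and the other fits reuse the same libraries. The count of calls ran from 4999 to 5134 with 1 library left out, and was 5177 with DESeq2, 5718 with DESeq2 size factors, 5854 with library sizes alone (2201 higher and 3653 lower), 5444 with no filter, 5695 with at least 1 CPM in 3 libraries and 6116 with only the 2 groups fitted. Tested against a 1.5-fold change with glmTreat, 376 genes passed (201 higher and 175 lower), 274 of them at least 2-fold apart in place of 471. The same test left 1413 genes between M2 CM and M1 CM (387 higher in M2 CM and 1026 lower) in place of 8157, and 3422 between M2 CM and TAM CM in place of 9919. Counts over gene lists fell with it too: of 29 Myc and ribosome biogenesis genes that rose 1 passed, of 27 amino acid genes 3, of 14 collagens that fell 6, and of 12 and 15 interferon-response genes that fell 1 and 0. Leaving out 1 library gave 457 to 473 genes at 2-fold, 7601 to 7907 against M1 CM and 9514 to 9580 against TAM CM.

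Same-numbered libraries did not deviate together (r of 0.0127, 0.0219 and 0.0136 between M2 CM and M0 CM), so the numbers were not read as pairs. With the replicate block 5821 genes were called (3101 higher and 2720 lower), 470 at 2-fold, 8219 against M1 CM and 9956 against TAM CM.

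Of the 195 genes named that were called, 110 kept the call and direction in every alternative, and 85 lost the call with glmTreat, whose bar is a fold of 1.5. Srp54b, Jak3, Stat3, Cfp, C1ra, Saa3, Ereg, Aldh3a1 and Aif1 lost it in another setting too. Of 13 named genes not called, 9 were not called in any alternative. With library sizes alone Jak1 (log2 fold change -0.08, edgeR adjusted p 0.0430), Stat5b (-0.13, edgeR adjusted p 0.0333) and Trp63 (-0.79, edgeR adjusted p 0.0466) passed, Trp63 also with the 1 CPM filter and with 2 groups fitted (0.0426 and 0.0254), and Lyz2 passed with the replicate block (0.0456). With 3 libraries a group and totals of 18996937 to 22596630 counts, genes under 1 CPM rest on few counts, and a p that missed the threshold does not show that a gene did not change.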
